A study of Mus musculus with 8 samples.

Results

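CD8+ T cells labelled MP were compared with cells labelled TN in mice labelled mCre, in 4 of the 8 small RNA libraries of the series. The members were chosen by their titles alone: mCre TN replicates 1 and 2, and mCre MP replicates 1 and 2. The other 4 libraries are TN and MP cells of mice labelled WT, also with 2 replicates each; they entered the model to share its estimate of spread. All cells came from spleen, were enriched for CD8 on magnetic beads, and were sorted after staining for CD8, CD4, CD44 and CD122. The labels do not spell out these names. In this field TN, MP and VM commonly stand for true naive, memory-phenotype and virtual memory, and the series' design text writes VM where the titles have MP, and Cre- where they have mCre. The name of the series holds mir29 and cre, and Cre is a recombinase that removes marked DNA. Neither the marked sequence, the promoter that drives Cre nor the strain is given in the sources used here. The protocol covers adult and newborn animals in the same text, so the age of each library is unknown. Nothing states that the replicates are separate mice, so the p-values measure the spread between libraries, which may be technical.

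Naive CD8+ T cells circulate without having met antigen. Virtual memory cells also have not met foreign antigen, yet they carry CD44 and CD122, a receptor chain for interleukins 2 and 15, and respond quickly to cytokine. A microRNA (miRNA) is cut from a hairpin precursor into a pair of strands, named 5p and 3p after the arm they come from. Usually the more abundant of them is loaded into Argonaute as the guide, and its seed, bases 2 to 8, pairs with target mRNAs. miRNAs with the same seed share most of their targets, so they are shown together.

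The smallest p-values between the subsets fell in a few families whose mature strands are given here 5′ to 3′, with the seed in capitals (RefSeq, GRCm38.p6). The miR-181 guides, which set how strongly T cell receptor signals are read in developing T cells, share 1 seed and are shown because all 4 were lower in MP.
miR-181a-5p: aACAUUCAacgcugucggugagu
miR-181b-5p: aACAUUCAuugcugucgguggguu
miR-181c-5p: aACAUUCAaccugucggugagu
miR-181d-5p: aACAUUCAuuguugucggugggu

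The partner strands of both miR-181a hairpins come from separate loci and can be told apart by sequence, unlike their common guide.
miR-181a-1-3p: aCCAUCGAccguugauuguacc
miR-181a-2-3p: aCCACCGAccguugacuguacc

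On the higher side, the strands that the results turn on are shown with miR-96, the middle member of the miR-183 cluster. Their seeds all differ, with some likeness within that cluster.
miR-183-5p: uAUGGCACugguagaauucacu
miR-182-5p: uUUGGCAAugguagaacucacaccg
miR-96-5p: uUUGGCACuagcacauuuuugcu
miR-146a-5p: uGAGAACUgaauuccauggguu
miR-30c-2-3p: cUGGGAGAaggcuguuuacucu
miR-30a-3p: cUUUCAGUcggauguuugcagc
miR-139-5p: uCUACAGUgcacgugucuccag
miR-139-3p: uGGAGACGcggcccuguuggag

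The miR-17 seed family, guides from 3 clusters that promote lymphocyte growth, is shown because its members were lower in MP as a group.
miR-17-5p: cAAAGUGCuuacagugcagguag
miR-20a-5p: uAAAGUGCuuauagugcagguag
miR-93-5p: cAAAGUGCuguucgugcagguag
miR-106b-5p: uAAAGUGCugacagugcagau

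The mCre libraries held 5230975 counts (TN replicate 1), 2921824 (TN replicate 2), 2140365 (MP replicate 1) and 3061363 (MP replicate 2), and 648, 532, 416 and 514 miRNAs with a count. Levels are given in CPM, the library's counts scaled to a common total and then by TMM factors, and log2 fold changes are MP over TN from the edgeR model, ± SE. Before the results, the miR-29 guides were read in each library, since the series name points to them. As shares of all counts they took 0.169% (0.166% to 0.173%) in mCre TN replicate 1 and 1.59% (1.58% to 1.60%) in mCre TN replicate 2. In MP they took 0.0774% (0.0737% to 0.0812%) and 0.132% (0.128% to 0.136%). The library labelled WT TN replicate 2 held 0.0770% (0.0732% to 0.0811%) and WT TN replicate 1 0.354%. WT MP replicates 1 and 2 held 0.367% and 1.14%, so that pair also stood apart. The library labelled mCre TN replicate 2 was thus the highest of all 8, and that labelled WT TN replicate 2 was level with mCre MP replicate 1, so each stood far from its own replicate, toward the other genotype. Every TN direction below draws on them as labelled, so values are also given from a fit without both of them, called the 6-library fit. That choice was made after the values were seen. It leaves 1 TN library in each genotype, so the spread in that fit comes from the MP pairs alone. Its p-values and calls therefore do not measure the spread within TN.

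The labelled cell type was checked on marker miRNAs, none of which tells CD8+ T cells from other lymphocytes. The lymphocyte miRNAs miR-150-5p and miR-142a-3p stood at 43540.3 to 153524 CPM and 618 to 1572 CPM. As summed CPM without TMM scaling, the 2 myeloid markers held 7.26 and 10.3 in TN and 1.40 and 2.94 in MP. The 5 erythroid and platelet markers held 81.6 and 148 in TN and 273 and 179.7 in MP, nearly all of it miR-486. The 6 epithelial markers held 1486 and 725 in TN and 1488 and 1868 in MP. Among them miR-200a-3p and miR-200b-3p were higher in both MP libraries, miR-200c-3p and miR-141-3p were lower, and miR-429-3p overlapped. The 7 endothelial and stromal markers held 61.6 and 41.8 in TN and 34.1 and 41.2 in MP. The 6 liver, muscle and neural markers held 30.8 and 22.6 in TN and 38.8 and 20.6 in MP, with miR-124-3p and miR-133a-3p, like the stromal miR-199a-5p, at 0 in all 4. The part of other cells in the results was not tested. In bulk libraries, fewer cells of a type and less of a miRNA per cell cannot be told apart.

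No miRNA passed the threshold of an adjusted p under 0.05 in edgeR's quasi-likelihood test (0 of 382, 0%; smallest edgeR adjusted p = 0.0829). Before adjustment 82 of 382 (21.5%) had p under 0.05, 33 higher (8.64%) and 49 lower (12.8%) in MP. After adjustment DESeq2 called 41 (10.7%). In 113 miRNAs (29.6%) both MP libraries lay above both TN libraries, and in 136 (35.6%) below, so lack of overlap alone was common. In the 6-library fit edgeR called 30 of 433 (6.93%), 9 higher (2.08%) and 21 lower (4.85%), and 20 of those 30 were among the 41 of DESeq2. Leaving out single libraries gave 56 calls (without WT TN replicate 1), 41 (without WT TN replicate 2), 2 (without mCre TN replicate 1) and 0 for each of the other 5. The median log2 fold change over all 382 miRNAs was -0.18, and -0.49 with total count scaling, so directions close to those values depend on the scaling. In what follows, "higher" and "lower" describe where the libraries lie, and a change is called only where a test is named.

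**Figure D1:**
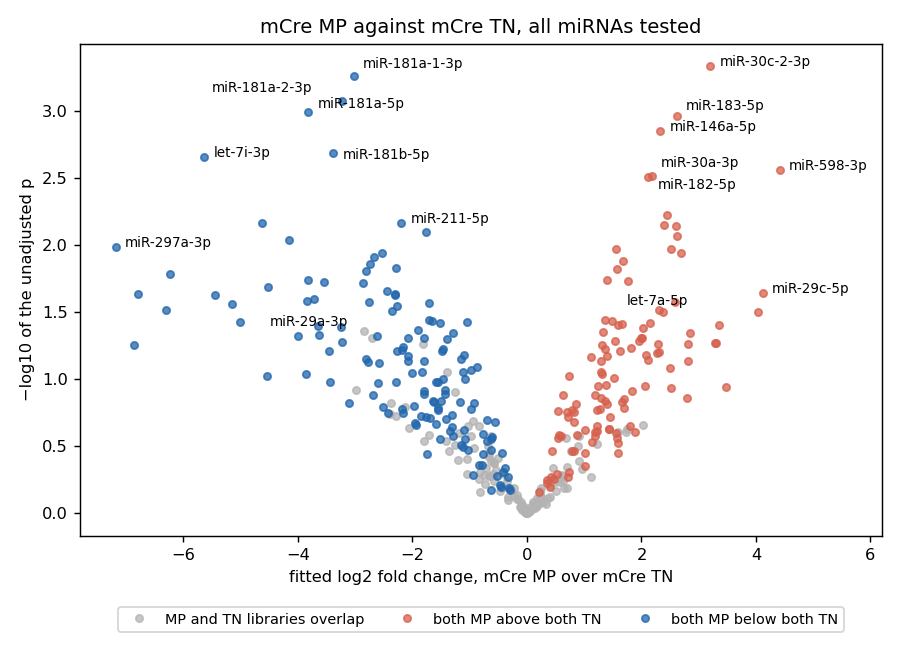
Each point is 1 of the 382 miRNAs tested, with the fitted log2 fold change of mCre MP over mCre TN on the horizontal axis and −log10 of the unadjusted edgeR p on the vertical axis; colour marks whether the 2 MP libraries lie above, below or among the 2 TN libraries. The miR-181 strands stand at the upper left and miR-30c-2-3p, miR-183-5p and miR-146a-5p at the upper right, and none passes after adjustment (smallest edgeR adjusted p = 0.0829).

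The miR-181 family had the lowest median of the 11 lists. miR-181a-5p stood at 4577 and 13767 CPM in TN and 435 and 864 CPM in MP. Even the lower TN library was thus above the higher MP library by a wide margin, and the TN replicate 2 library was the highest. Its log2 fold change was -3.82 ± 0.76 (edgeR adjusted p = 0.0829), and -2.93 in the 6-library fit (edgeR adjusted p = 0.00816). miR-181b-5p, from the same pair of transcripts, followed it, at 936 and 2408 CPM in TN and 104 and 217 CPM in MP. Its log2 fold change was -3.38 ± 0.75, and -2.66 in the 6-library fit (edgeR adjusted p = 0.0174).

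The partner strands showed the same order with tighter replicates. miR-181a-1-3p stood at 149 and 214 CPM in TN and 28.6 and 16 CPM in MP. miR-181a-2-3p stood at 132 and 123 CPM in TN and 13.8 and 13.2 CPM in MP. The strands specific to each miR-181a locus were thus both lower, by log2 fold changes of -3.03 ± 0.55 and -3.23 ± 0.62 (edgeR adjusted p = 0.0829 for each). In the 6-library fit they were -2.93 and -3.44 (edgeR adjusted p = 0.00816 and 0.00532). Mir181a-1 lies on chromosome 1 at 137966455 to 137966541 (plus strand, GRCm38.p6), in an exon of the noncoding gene A430106G13Rik, with Mir181b-1 beside it at 137966639 to 137966718.

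The miR-181c and miR-181d guides come from another cluster, with the miR-181d hairpin on chromosome 8. miR-181c-5p stood at 43.7 and 1078 CPM in TN and 21.2 and 27.3 CPM in MP. Its gap rested on the TN replicate 2 library: the log2 fold change of -4.53 ± 1.57 became -0.99 in the 6-library fit (edgeR adjusted p = 0.409). miR-181d-5p was -1.47 ± 0.67, or -0.85 in the 6-library fit. Of the 9 strands of the family tested, 8 were lower in both MP libraries (35.6% over all 382 miRNAs) and 6 had an unadjusted p under 0.05 (12.8% lower over all); 0 passed after adjustment. The family median was -3.23, and -2.93 in the 6-library fit, against -0.18 and -0.40 over all 382 miRNAs. miR-181d-3p was the exception, at 3.82 and 1.04 CPM in TN and 6.89 and 4.67 CPM in MP.

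**Figure D2:**
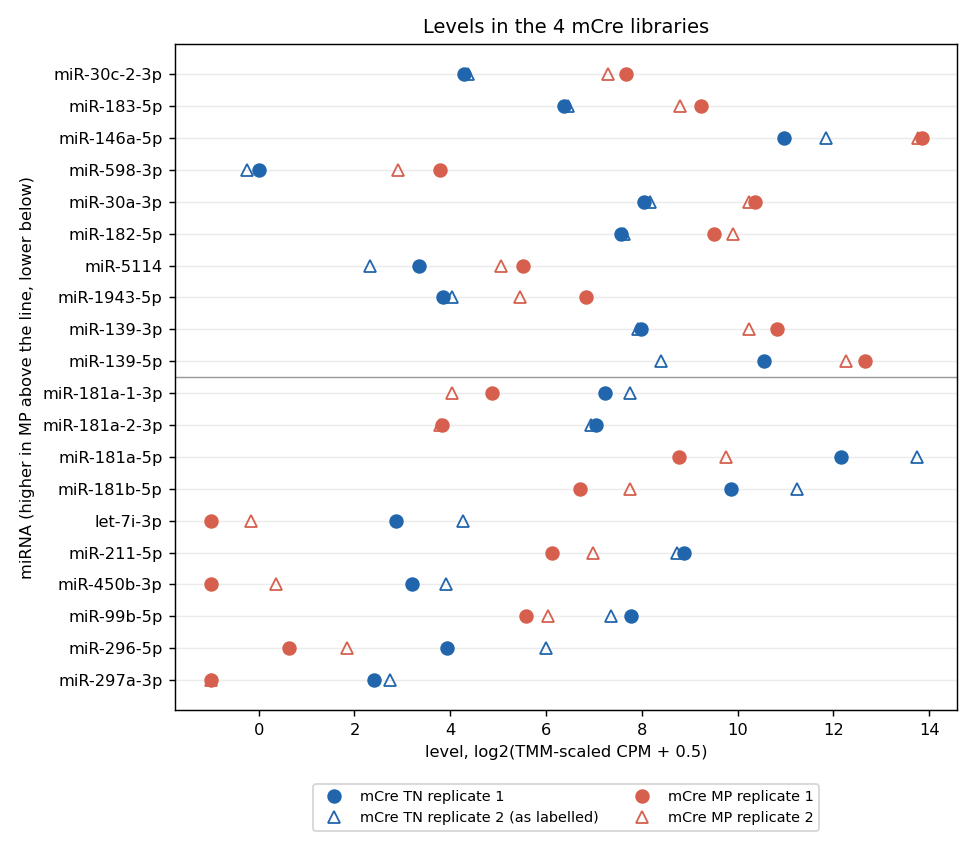
Points give log2(TMM-scaled CPM + 0.5) of 20 miRNAs in the 4 mCre libraries, TN in blue and MP in red, replicate 1 filled and replicate 2 open; the 10 miRNAs above the line are those with the smallest p among miRNAs higher in both MP libraries, and the 10 below it those lower in both. Groups do not overlap because the miRNAs were selected that way; the reader can see that the replicates of miR-183-5p, miR-30a-3p and miR-181a-2-3p lie close together while those of miR-139-5p and miR-296-5p spread in TN.

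The miR-183 cluster, known from helper T cells, where miR-182 restrains the transcription factor Foxo1, was higher in MP in all 3 of its guides. miR-183-5p stood at 82.2 and 87.7 CPM in TN and 602 and 442 CPM in MP. miR-182-5p stood at 189.7 and 198 CPM in TN and 728 and 957 CPM in MP. The TN replicates of both lay close to each other. Their log2 fold changes were 2.62 ± 0.53 and 2.12 ± 0.51 (edgeR adjusted p = 0.0829 and 0.108), and 2.50 and 2.01 in the 6-library fit (edgeR adjusted p = 0.0253 and 0.0442). miR-96-5p, which lies between them, was scarce, at 2.99 and 2.08 CPM in TN and 6.89 and 8.96 CPM in MP. The 3 hairpins lie on chromosome 6 (minus strand): Mir182 at 30165918 to 30165992, Mir96 at 30169446 to 30169551 and Mir183 at 30169668 to 30169737, in no annotated host gene. The list median was 2.12, with 3 of 3 higher in both MP libraries (29.6% over all 382 miRNAs).

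Among miRNAs of T cell activation, miR-146a-5p and miR-21a-5p were higher in MP. miR-146a-5p, which damps NF-kB signalling, stood at 2017 and 3686 CPM in TN and 14742 and 13984 CPM in MP. The MP replicates were nearly the same, and the TN replicate 2 library was the higher of the TN pair. Its log2 fold change was 2.33 ± 0.49 (edgeR adjusted p = 0.0905), and 2.68 in the 6-library fit (edgeR adjusted p = 0.00816). miR-21a-5p, induced on activation, stood at 21120.5 and 17942 CPM in TN and 42239.5 and 72079 CPM in MP, a log2 fold change of 1.55 ± 0.47. It did not pass with all libraries or in the 6-library fit (edgeR adjusted p = 0.183 and 0.122).

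The other activation miRNAs went in both directions. miR-155-5p, needed for effector responses, overlapped between the subsets, at 756 and 1296 CPM in TN and 1078 and 1312 CPM in MP (0.22 ± 0.53, or 0.52 in the 6-library fit). miR-221-3p was lower in both MP libraries, at 181 and 247 CPM in TN and 78.9 and 122 CPM in MP (-1.09 ± 0.59, or -0.97 in the 6-library fit). Its neighbour miR-222-3p, with the same seed, stood at 326 and 71.7 CPM in TN and 341 and 386 CPM in MP (0.87 ± 0.71, or 0.01 in the 6-library fit). Of the 10 listed, 7 were tested: 3 were higher in both MP libraries (29.6% over all 382 miRNAs), 1 lower (35.6%) and 3 overlapped. The list median was 0.22, and -0.07 with total count scaling, so its sign depends on the scaling.

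In the miR-30 family the strands went in both directions. miR-30c-2-3p had the smallest p of all, at 18.9 and 20.1 CPM in TN and 203 and 157 CPM in MP. miR-30a-3p stood at 265 and 289 CPM in TN and 1312 and 1213 CPM in MP. In both, the replicates of each subset lay close together. The log2 fold changes were 3.21 ± 0.57 and 2.19 ± 0.52 (edgeR adjusted p = 0.0829 and 0.108), and 3.08 and 2.09 in the 6-library fit (edgeR adjusted p = 0.00849 and 0.0352). Mir30a lies on chromosome 1 at 23272269 to 23272339 and Mir30c-2 at 23291701 to 23291784, both on the plus strand. miR-30a-5p, the guide of the same hairpin as miR-30a-3p, was also higher in MP, at 386 and 526 CPM in TN and 1376 and 1229 CPM in MP (1.51 ± 0.81, or 1.60 in the 6-library fit). miR-30c-5p, which 2 hairpins give, overlapped, at 11751 and 3378 CPM in TN and 3102 and 6426 CPM in MP. miR-30b-5p went the other way, at 572 and 609.7 CPM in TN and 113 and 201 CPM in MP (-1.91 ± 0.79, or -1.98 in the 6-library fit). Of 11 strands tested, 3 were higher in both MP libraries (29.6% over all 382 miRNAs), 2 were lower (35.6%) and 6 overlapped, with a median of 0.02, so as a list the family was near the background. The other 4 of its 3p strands overlapped.

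miR-139, a brake on cytotoxic genes in CD8+ T cells, was higher in MP in both strands. miR-139-5p stood at 1507 and 337 CPM in TN and 6489 and 4925 CPM in MP, and miR-139-3p at 251 and 240.2 CPM in TN and 1800.2 and 1199 CPM in MP. The TN replicate 2 library was far below replicate 1 for the 5p strand and close to it for the 3p strand. The log2 fold changes were 2.63 ± 0.76 and 2.61 ± 0.73, and 1.75 and 2.40 in the 6-library fit (edgeR adjusted p = 0.0499 and 0.0253). The hairpin sits within an intron of Pde2a on the same strand (chromosome 7, 101475376 to 101475443).

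The 10 smallest p in each direction also held the following miRNAs. miR-598-3p stood at 0.498 and 0.347 CPM in TN and 13.2 and 7.01 CPM in MP, and its TN libraries held 3 and 1 counts. miR-5114 and miR-1943-5p were higher in MP, with log2 fold changes of 2.45 ± 0.66, or 1.85 in the 6-library fit, and 2.40 ± 0.67, or 2.29 in the 6-library fit. miR-211-5p, known from pigment cells, where it is made from an intron of Trpm1, was lower, at 471 and 426 CPM in TN and 69.4 and 126 CPM in MP (-2.20 ± 0.61, or -2.38 in the 6-library fit). miR-99b-5p was lower, at 218 and 164 CPM in TN and 47.1 and 65.4 CPM in MP (-1.76 ± 0.50, or -2.08 in the 6-library fit). miR-296-5p was lower as well, at 14.8 and 63.1 CPM in TN and 1.06 and 3.12 CPM in MP (-4.15 ± 1.21, or -2.87 in the 6-library fit). let-7i-3p had 95 counts in TN and 1 in MP, so TN over MP was 47.5 (exact 95% counting interval 8.33 to 1897). miR-450b-3p had 94 and 2, a ratio of 23.5 (6.33 to 197). miR-297a-3p had 47 counts in TN and 0 in MP, so it was at least 7.84-fold lower in MP, with a floor of 3 counts over the MP group.

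The let-7 family, which keeps naive T cells quiescent, made up a larger part of the MP libraries. Its guides took 51.2% (51.2% to 51.3%) and 43.9% (43.8% to 43.9%) of the counts in TN, and 63.2% (63.2% to 63.3%) and 59.5% (59.4% to 59.5%) in MP. The difference was uneven between members. let-7a-5p stood at 62813 and 68084 CPM in TN and 193969 and 143424 CPM in MP, a log2 fold change of 1.37 ± 0.54, or 1.26 in the 6-library fit. let-7f-5p, the most abundant miRNA, stood at 189356 and 181997 CPM in TN and 306259 and 310280.0 CPM in MP (0.73 ± 0.39, or 0.55 in the 6-library fit). let-7g-5p overlapped between the subsets, at 105924 and 108406 CPM in TN and 78548 and 140524 CPM in MP (0.03 ± 0.40, or -0.07 in the 6-library fit). Of 10 guides tested, 6 were higher in both MP libraries (29.6% over all 382 miRNAs), 0 lower and 4 overlapped, and the median was 0.62, or 0.31 with total count scaling. Near-identical let-7 members can share reads, so single members are uncertain. The library labelled WT TN replicate 2 held 68.7% (68.6% to 68.7%) let-7, the highest of the 8.

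miRNAs of resting lymphocytes were mostly lower in MP. Of 10 tested, 9 were lower in both MP libraries (35.6% over all 382 miRNAs) and 1, miR-139-5p, was higher. Of the 9, 3 had an unadjusted p under 0.05 (12.8% over all), and 0 passed after adjustment. The list median was -0.82, and -0.88 in the 6-library fit. In WT, with its libraries as labelled, it had the opposite sign, at 0.62. miR-150-5p, which marks mature lymphocytes and targets Myb, stood at 87741 and 153524 CPM in TN and 43540.3 and 72673 CPM in MP. Its log2 fold change was -1.05 ± 0.42, or -0.72 in the 6-library fit. miR-342-3p stood at 3212 and 7486 CPM in TN and 846 and 1336 CPM in MP (-2.29 ± 0.74; -1.68 in the 6-library fit, edgeR adjusted p = 0.0495). miR-26b-5p stood at 11535 and 51872 CPM in TN and 4553 and 8550.2 CPM in MP, with a log2 fold change of -2.27 ± 0.85, or -0.93 in the 6-library fit. miR-26a-5p, with the same seed, gave -0.87 ± 0.44, or -0.95 in the 6-library fit. miR-142a-5p, made across the blood lineages, gave -2.26 ± 1.04, or -1.39 in the 6-library fit.

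Many strands of the growth-related clusters were lower in MP. In the miR-17-92 cluster and its paralogs 13 of 19 strands were lower in both MP libraries (35.6% over all 382 miRNAs), 1 was higher and 5 overlapped. Of the 19, 5 were lower with an unadjusted p under 0.05 (12.8% over all), and 0 passed after adjustment. The list median was -1.59, or -1.36 in the 6-library fit. The 4 guides with the miR-17 seed shown above were lower in both MP libraries. miR-93-5p stood at 504 and 1054 CPM in TN and 104 and 183 CPM in MP (-2.44 ± 0.86, or -1.93 in the 6-library fit), and miR-106b-5p at 91.7 and 176 CPM in TN and 15.9 and 27.7 CPM in MP (-2.61 ± 1.11, or -2.19 in the 6-library fit). miR-17-5p stood at 322 and 258 CPM in TN and 82.6 and 109.8 CPM in MP, and miR-20a-5p at 734 and 255 CPM in TN and 87.9 and 242 CPM in MP. For these 4 the highest MP library stayed below the lowest TN library, by a narrow margin for miR-20a-5p. The most abundant member did not follow: miR-92a-3p overlapped, at 76992 and 105276 CPM in TN and 84262 and 91918 CPM in MP (-0.05 ± 0.35, or 0.05 in the 6-library fit). The log2 fold changes of miR-17-5p and miR-20a-5p were -1.59 ± 0.87, or -1.88 in the 6-library fit, and -1.58 ± 1.18, or -2.25 in the 6-library fit. In the 6-library fit the edgeR adjusted p was 0.0393 for miR-93-5p, 0.0335 for miR-106b-5p, 0.0415 for miR-17-5p and 0.0393 for miR-20a-5p.

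The miR-15/16 family, which restrains the cell cycle, was lower in both MP libraries in 4 of 4 members tested (35.6% over all 382 miRNAs). Of these, 2 had an unadjusted edgeR p under 0.05 (12.8% lower over all), and 0 passed after adjustment. miR-16-5p stood at 4472 and 10249 CPM in TN and 1170.5 and 2335 CPM in MP (-2.07 ± 0.89, or -1.47 in the 6-library fit). miR-15b-5p stood at 1025 and 2012 CPM in TN and 226 and 445 CPM in MP (-2.18 ± 1.00, or -1.73 in the 6-library fit). miR-15a-5p ran from 34.6 to 360.5 CPM within TN, and its log2 fold change was -4.00 ± 1.71, or -1.62 in the 6-library fit. The family median was -2.12, and -1.54 in the 6-library fit.

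In the miR-23/27/24 clusters, the miR-23 and miR-24 guides were lower in MP and the miR-27 guides overlapped. miR-23a-3p, which restrains cytotoxic function in CD8+ T cells, stood at 2209 and 3586 CPM in TN and 323 and 679 CPM in MP (log2 fold change -2.53 ± 0.77; -2.25 in the 6-library fit, edgeR adjusted p = 0.0253). miR-23b-3p and miR-24-3p were also lower, with log2 fold changes of -1.71 ± 0.68, or -1.24 in the 6-library fit, and -1.10 ± 0.52, or -1.21 in the 6-library fit. miR-27b-3p overlapped, at 6994 and 3948 CPM in TN and 4785 and 7552 CPM in MP (0.17 ± 0.57, or -0.31 in the 6-library fit), and so did miR-27a-3p, at 1616 and 220.4 CPM in TN and 822 and 1056 CPM in MP (0.03 ± 0.89, or -0.92 in the 6-library fit). Of 10 strands, 2 were higher (29.6% over all 382 miRNAs), 3 lower (35.6%) and 5 overlapped, so as a list these clusters were near the background. In the clusters of miR-99, miR-100 and miR-125, 4 of 5 members were lower in both MP libraries (35.6% over all 382 miRNAs), with a median of -1.76. miR-125b-5p, linked to the naive state of T cells, stood at 13.6 and 39.9 CPM in TN and 3.18 and 4.67 CPM in MP (-2.74 ± 0.87, or -1.91 in the 6-library fit), and miR-125a-5p at 82.6 and 146 CPM in TN and 40.3 and 52.6 CPM in MP (-1.30 ± 0.55, or -0.97 in the 6-library fit). miR-223-3p, the main myeloid miRNA, had 49 counts in TN and 2 in MP, so TN over MP was 12.3 (exact 95% counting interval 3.22 to 104). Its partner strand miR-223-5p did not follow and overlapped, at 2.99 and 0.347 CPM in TN and 1.59 and 2.73 CPM in MP.

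**Figure D3:**
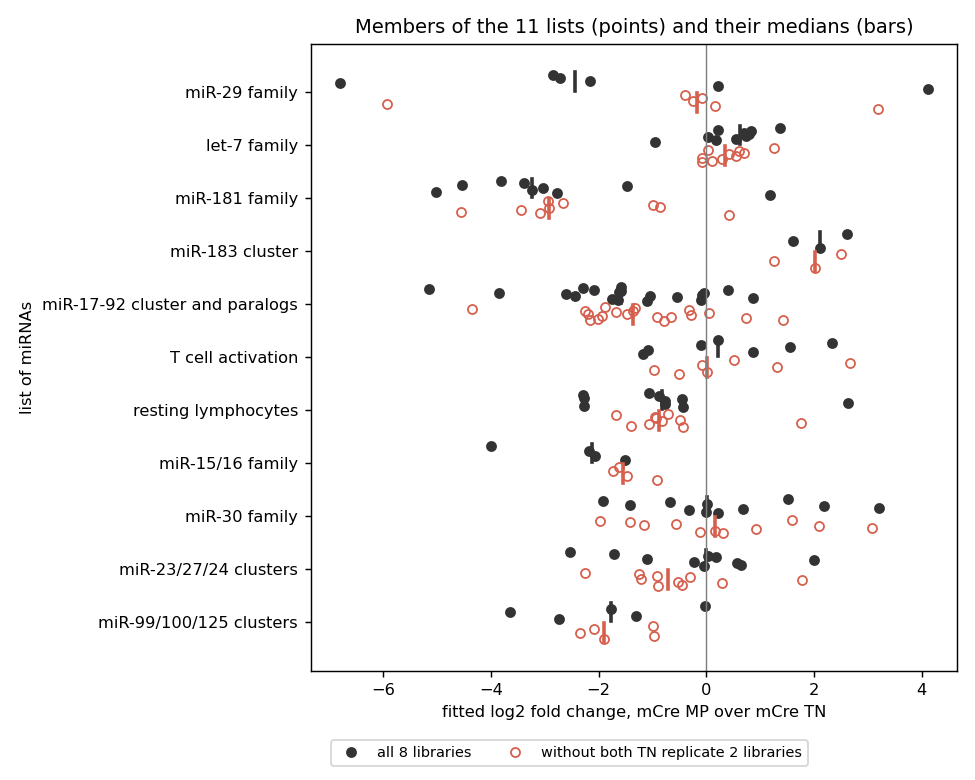
Each point is the fitted log2 fold change (horizontal axis, mCre MP over mCre TN) of a member of 1 of 11 lists of miRNAs (vertical axis), in black with all 8 libraries and in open red without both TN replicate 2 libraries; bars are list medians. The miR-29 median moves from -2.43 to -0.16 when those libraries are left out, while the miR-181 median moves from -3.23 to -2.93 and the miR-183 median from 2.12 to 2.01.

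The miR-29 forms, which limit interferon gamma and the factors T-bet and Eomes in T cells, are given here form by form. miR-29a-3p stood at 1409 and 15389.8 CPM in TN and 833 and 1498 CPM in MP. TN replicate 1 thus lay between the MP libraries, and TN replicate 2 far above them. The log2 fold change of -2.85 ± 1.19 became -0.39 in the 6-library fit (edgeR adjusted p = 0.229 and 0.718). miR-29b-3p (53.7 and 663.8 CPM in TN and 38.7 and 70.9 CPM in MP) and miR-29c-3p (5.98 and 45.1 CPM in TN and 5.83 and 5.45 CPM in MP) had the same high TN replicate 2. DESeq2 called miR-29a-3p (adjusted p = 0.0360), miR-29b-3p (adjusted p = 0.0482) and, in the opposite direction, miR-29c-5p (adjusted p = 0.0342). The minor strands were scarce. miR-29c-5p stood at 0.997 and 0 CPM in TN and 14.8 and 6.62 CPM in MP (4.12 ± 1.46, or 3.18 in the 6-library fit). miR-29a-5p had 31 counts in TN and 0 in MP, at least 5.17-fold lower in MP with a floor of 3 counts over the group. miR-29b-1-5p overlapped, at 4.15 and 4.16 CPM in TN and 0.530 and 8.96 CPM in MP (0.22 ± 1.08, or 0.16 in the 6-library fit).

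Counts were then summed over all miRNAs with the same seed, which removes the sharing of reads between members whose sequences are in the reference and whose seeds are equal. Near-identical pairs such as miR-23a-3p and miR-23b-3p stayed apart where a sequence was missing. TMM factors were computed anew for the sums, so CPM of sums and of single miRNAs are on different scales and cannot be compared. After adjustment 0 of 322 sums (0%) passed in edgeR, with a smallest edgeR adjusted p of 0.0668, and 29 (9.01%) in DESeq2. Before adjustment 72 (22.4%) had p under 0.05, 27 higher (8.39%) and 45 lower (14%) in MP. Both MP libraries lay above both TN libraries in 98 sums (30.4%) and below them in 111 (34.5%). In the 6-library fit edgeR called 71 of 369 (19.2%), 20 higher (5.42%) and 51 lower (13.8%). Leaving out single libraries gave 50 (WT TN replicate 1), 45 (WT TN replicate 2), 4 (mCre TN replicate 1) and 0 for each of the other 5.

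The smallest p belonged to the seed CCAUCGA, of miR-181a-1-3p and miR-181c-3p, with a log2 fold change of -3.14 ± 0.52; -3.0 in the 6-library fit. The miR-181 guides together stood at 6235 and 18833 CPM in TN and 753 and 1510.4 CPM in MP (-3.47 ± 0.74; -2.56 in the 6-library fit). The miR-17 seed stood at 1991 and 1940.5 CPM in TN and 293 and 665 CPM in MP, with TN replicates close together although their members were not (-2.04 ± 0.96; -2.15 in the 6-library fit). The miR-15/16 seed stood at 5629 and 12789 CPM in TN and 1249 and 2768 CPM in MP (-2.20 ± 0.89; -1.59 in the 6-library fit). The miR-26 seed stood at 37609 and 80126 CPM in TN and 14398 and 25479 CPM in MP (-1.56 ± 0.56; -1.02 in the 6-library fit). On the higher side, the miR-146 seed stood at 2296 and 4034 CPM in TN and 13258 and 14064 CPM in MP (2.11 ± 0.50; 2.47 in the 6-library fit). The let-7 seed stood at 451625 and 449182 CPM in TN and 634344 and 699590.0 CPM in MP, so its TN replicates were nearly equal and both MP libraries were higher (0.57 ± 0.37; 0.46 in the 6-library fit). The seed of miR-221 and miR-222 overlapped, at 514 and 323 CPM in TN and 371 and 501 CPM in MP, and its members went opposite ways. The miR-30 guides with a sequence in the reference overlapped too; miR-30b-5p and miR-30d-5p were left as single features there, as was miR-150-5p.

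The share of counts on the 3p arm was then taken for each hairpin, a ratio within a library that no scaling touches. Where a strand can come from several hairpins, as the miR-181a guide can, its counts entered the share of each. Such shares do not describe a single locus. Among 112 hairpins with at least 100 counts in the mCre libraries, the 3p share was higher in both MP libraries in 27 (24.1%), lower in 35 (31.2%) and overlapped in 50. This is a description, chosen after the values were seen, with no test. One of them was miR-342, whose hairpin lies in an intron of Evl (chromosome 12, 108658620 to 108658718). Its strands are shown because their balance turned over between the subsets.
miR-342-5p: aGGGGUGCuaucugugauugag
miR-342-3p: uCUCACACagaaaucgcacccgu

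The 3p strand of miR-342 made up 59.2% (58.7% to 59.7%) and 98.9% (98.7% to 99.0%) of the hairpin's counts in TN, and 17.1% (16.4% to 17.9%) and 33.5% (32.6% to 34.4%) in MP. The 3p strand thus led in both TN libraries and the 5p strand in both MP libraries. As levels, miR-342-5p stood at 2214 and 83.9 CPM in TN and 4099.8 and 2655 CPM in MP, with a very low TN replicate 2. For miR-423, in an intron of Nsrp1, the 3p share was 59.9% and 56.1% in TN and 23.3% and 34.0% in MP. Its 5p strand stood at 2627 and 2589 CPM in TN and 16984 and 8902 CPM in MP (log2 fold change 2.31 ± 0.88; 2.11 in the 6-library fit, edgeR adjusted p = 0.0335). The miR-664 hairpin lies in an intron of Rab3gap2 and overlaps Snora36b, a small nucleolar RNA gene on the same strand. Whether its counts came from that RNA was not tested. Its 3p share was 78.2% (74.6% to 81.4%) and 86.7% (83.0% to 89.7%) in TN and 17.9% (13.5% to 23.3%) and 34.0% (28.8% to 39.8%) in MP. miR-296 went the other way, from 79.4% (75.4% to 83.0%) and 63.5% (59.2% to 67.6%) to 99.3% (97.3% to 99.8%) and 96.6% (93.3% to 98.2%). Strands of miR-150 also parted: miR-150-3p stood at 1518 and 1459.9 CPM in TN and 4614 and 3073 CPM in MP, higher in MP where its guide was lower. By contrast, miR-139 (14.3% and 41.6% in TN, 21.7% and 19.6% in MP) and both miR-181a hairpins overlapped in strand share.

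The strand shares were then read in the WT libraries. In WT MP the 3p share of miR-342 was 62.6% and 74.9%, on the side of the mCre TN libraries. In the library labelled WT TN replicate 2 it was 16.5%, and in WT TN replicate 1 73.7%. Of 72 hairpins with at least 100 counts across their arms in each of the 8 libraries, 45 did not overlap within mCre. For each of these the midpoint between the nearest mCre TN and MP libraries, on a log odds scale, was taken as the border. The library labelled WT TN replicate 2 lay on the MP side in 36 of the 45, WT TN replicate 1 in 4, WT MP replicate 1 in 7 and WT MP replicate 2 in 5. The mCre MP libraries and the library labelled WT TN replicate 2 also had the 3 highest let-7 shares and the 3 smallest numbers of miRNAs with a count (416, 514 and 478). The 2 smallest totals were those of mCre MP replicate 1 and WT TN replicate 2, at 2140365 and 1936597. The part of library content in the subset difference was not tested.

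**Figure D4:**
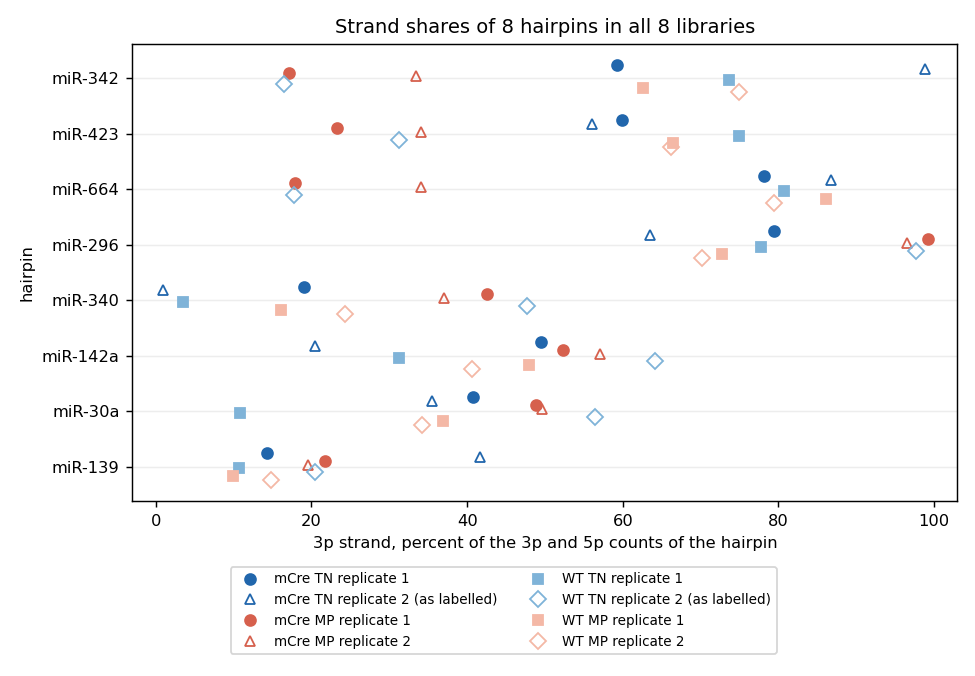
The horizontal axis gives the 3p strand as a percent of the 3p and 5p counts of 8 hairpins (vertical axis), chosen after their values were seen, in each of the 8 libraries; dark colours are mCre, light colours WT, blue TN and red MP. For miR-342, miR-423 and miR-664 the mCre MP libraries and the library labelled WT TN replicate 2 lie to the left of the other 5, as in the 3p shares of miR-342 of 17.1%, 33.5% and 16.5%.

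The difference from WT was tested in the same model, as the mCre MP to TN change minus that in WT. After adjustment 0 of 382 (0%) passed in edgeR, with a smallest edgeR adjusted p of 0.301, and 9 in DESeq2. Before adjustment 54 (14.1%) had p under 0.05. Leaving out WT TN replicate 1 gave 68 calls and each other single library 0; the 6-library fit gave 0. The 5 miRNAs with the smallest p were miR-664-3p, let-7i-3p, miR-296-5p, miR-21a-3p and let-7c-5p. miR-664-3p stood at 73.1 and 122 CPM in TN and 22.2 and 37.4 CPM in MP in mCre, and at 40.4 and 15.2 CPM in TN and 120.2 and 122 CPM in MP in WT. The order of the subsets was thus opposite, with a difference of -3.82 ± 0.89 on the log2 scale. let-7c-5p stood at 23986 and 22625 CPM in TN and 50498 and 31929.8 CPM in MP in mCre, and at 21044 and 78528 CPM in TN and 10238 and 11553 CPM in MP in WT. Its difference of 3.01 ± 0.86 included the high library labelled WT TN replicate 2. miR-150-5p, lower in MP in mCre, stood at 49909 and 46035 CPM in TN and 83131 and 104654 CPM in MP in WT, a difference of -2.02 ± 0.60. With the libraries as labelled, several list medians had opposite signs in mCre and WT. The medians in that order were -2.43 and 2.04 for miR-29, 0.62 and -0.66 for let-7, and -1.59 and 0.40 for miR-17-92. For resting lymphocytes they were -0.82 and 0.62, and for miR-15/16 -2.12 and 0.34. In the miR-23/27/24 clusters they were -0.0076 and 0.043, both near 0. The mCre median of those clusters was -0.71 in the 6-library fit and 0.60 without mCre TN replicate 1, so its sign depends on the libraries used. The other non-marker lists kept their sign, with -3.23 and -1.55 for miR-181 and 2.12 and 1.34 for miR-183. Some single miRNAs also had like directions in both genotypes. In WT the log2 fold change was 2.88 for miR-146a-5p, -2.14 for miR-181a-5p, -3.56 for miR-181a-2-3p, 2.08 for miR-30a-3p and 1.05 for miR-183-5p. Their differences from mCre were -0.55 ± 0.66, -1.68 ± 0.96, 0.33 ± 0.81, 0.11 ± 0.71 and 1.57 ± 0.71. Since none passed, no miRNA was shown to differ between the genotypes, nor to be alike.

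**Figure D5:**
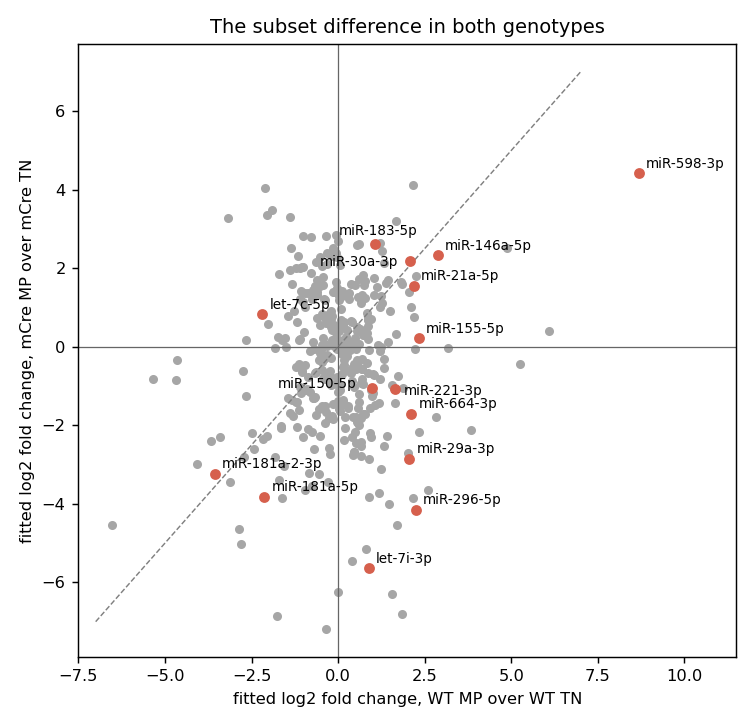
Each point is 1 of the 382 miRNAs, with the fitted log2 fold change of MP over TN in WT on the horizontal axis and in mCre on the vertical axis; the dashed line marks equal values and named miRNAs are red. miR-146a-5p, miR-30a-3p and miR-21a-5p lie above 0 on both axes and miR-181a-5p and miR-181a-2-3p below 0 on both, while miR-664-3p, miR-296-5p and miR-150-5p lie above 0 in WT and below 0 in mCre.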

How the data were processed

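Small RNA libraries were made from sorted CD8+ T cells with the NEBNext small RNA kit, per the labels' protocols. The authors deposited 1 table of expected counts per miRNA and library (2128 rows, 1978 mature names). The genome build was mm10, per the submitters' processing notes, and for the aligner, the counter and reads that match several miRNAs the sources used here give nothing. Rows with the same name were summed (85 names stood in several rows), since 1 mature strand can come from several hairpins, and sums were rounded to whole numbers. Per library 1936597 to 5230975 counts remained. The kit's ligation and amplification favour some sequences and no molecular identifiers are described, so levels of different miRNAs are not compared as molecules, and intervals (Wilson for shares, exact for ratios, 95%) and floors of 3 counts cover counting error only.

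Levels are TMM-scaled CPM. edgeR 4.0.16 (R 4.3.3, limma 3.58.1) fitted the 4 groups together with a robust quasi-likelihood model after filterByExpr (minimum count 10, minimum total 15), and p-values were adjusted by Benjamini-Hochberg over all 382 miRNAs, or 322 seed features; 4 residual degrees of freedom were left. The seed fit used RefSeq sequences (GRCm38.p6), which matched 717 of 877 names with a count; the others were kept as single features. DESeq2 1.42.0, other scalings, no filter, a replicate block, the mCre libraries alone, and leaving out libraries were the alternatives. The scripts were tested on simulated data. The replicates of each group differed beyond sampling noise in a chi-square comparison of counts.

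The members were picked by their titles alone, but they, the lists of miRNAs and the alternatives were chosen with earlier results of these data known. miRNAs are named by a rule: the 10 with the smallest p in each direction among those without overlap, the 6 most abundant, each tested miR-29 form, at most 6 members of each list, again by p, the other arm of each hairpin so named, the 5 with the smallest p for the difference from WT, and 5 seeds per direction. Named outside it, after their values were seen, were miR-181d-5p, miR-20a-5p, miR-423-5p and others given to complete a family.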

Additional observations from a re-analysis of the deposited data

How the results depend on the processing

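The counts of calls depended on the processing. For mCre MP against mCre TN, 0 calls became 24 with no filter on low counts (2 higher and 22 lower in MP), 41 with DESeq2 and 30 without both TN replicate 2 libraries, and 0 to 56 with single libraries left out. For the seed sums, 0 became 15 with no filter, 29 with DESeq2 and 71 without both TN replicate 2 libraries, and 0 to 50 with single libraries left out. For the difference from WT, 0 became 10 with no filter and 9 with DESeq2, and 0 to 68 with single libraries left out. RLE factors, total counts and TMM factors computed without let-7 gave 0 edgeR calls in each of the 3 comparisons, and the mCre libraries alone gave 0 in both they could be used for. The cause of these moves was not tested. Of the 30 calls without both TN replicate 2 libraries, 20 were also called by DESeq2, 13 with no filter, 24 without WT TN replicate 1 and 22 without WT TN replicate 2. Where 1 library is left in a group, it is assumed to vary like the other groups.

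With the replicate number as a block, edgeR called 0 in each of the 3 comparisons, with 60 miRNAs at an unadjusted p under 0.05 for mCre MP against mCre TN (smallest edgeR adjusted p = 0.134). Over 382 miRNAs the replicate differences correlated between groups at 0.13 (mCre TN and MP), -0.31 (mCre TN and WT TN) and -0.32 (mCre MP and WT TN). The remaining values were 0.41 (mCre TN and WT MP), 0.0030 (mCre MP and WT MP) and 0.021 (WT TN and WT MP). Each group gives a single difference, and both TN replicate 2 libraries stood far from their replicates. These values therefore cannot settle whether the numbers pair the samples.

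For the 70 single miRNAs named, 938 of 1119 alternative values kept their direction and their side of the threshold, 135 passed it only in the alternative and 46 changed sign, all in 9 miRNAs. As log2 fold changes, let-7g-5p went from 0.032 to -0.29 with total count scaling, -0.14 with no filter, -0.072 without both TN replicate 2 libraries and -0.54 to 0.43 over single libraries left out. miR-92a-3p went from -0.049 to 0.028 with factors computed without let-7, 0.047 without both TN replicate 2 libraries and -0.32 to 0.067 over single libraries left out. miR-29b-1-5p went from 0.22 to -0.12 with total count scaling, -0.0545 with the replicate block and -2.98 to 1.14 over single libraries left out. miR-21a-3p went from -0.43 to 0.40 without both TN replicate 2 libraries and -1.09 to 0.40 over single libraries left out. miR-155-5p went from 0.22 to -0.068 with total count scaling and -0.19 to 0.52 over single libraries left out. miR-27a-3p went from 0.032 to -0.37 with total count scaling, -0.16 with no filter, -0.92 without both TN replicate 2 libraries and -0.92 to 2.02 over single libraries left out. miR-27b-3p went from 0.17 to -0.18 with total count scaling, -0.00884 with no filter, -0.31 without both TN replicate 2 libraries and -0.31 to 0.57 over single libraries left out. miR-30c-5p, at -0.67, ran from -1.42 to 0.42 over single libraries left out. miR-30d-5p went from 0.019 to -0.33 with total count scaling, -0.15 with no filter, -0.57 without both TN replicate 2 libraries and -0.56 to 0.57 over single libraries left out. Depth limits the scarce strands: with 3 or fewer counts in MP, only counting intervals or lower bounds are given.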
